A study of Mus musculus with 2 samples.

Results

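The cells described here are the richest and the poorest in mitotic transcripts among mouse embryonic stem cells that received only DMSO, the solvent control. They were chosen by a measured value: the share of a cell's unique molecular identifiers (UMIs, each standing for 1 captured transcript) that fell in Ccnb1, Cdc20, Cenpf, Plk1, Aurka, Ube2c, Cenpe and Hmmr. Of 811 cell barcodes in the DMSO library, 764 held at least 23500 UMIs and were ranked by this share, and the top and bottom 191 cells form the mitotic-rich and the mitotic-poor quartile. They are 382 of the 1553 barcodes of the series.

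Per the labels, the cells are of the male line E14, a long-established line that can form all embryonic tissues, and their strain is given as C57BL/6. They grew on gelatin without feeder cells, in a 2i medium (inhibitors of the kinases MEK and GSK3) with leukaemia inhibitory factor, which holds stem cells in the naive state. DMSO was given for 24 h, and the second library came from cells given Idoxuridine, a thymidine analogue that is built into new DNA, for 24 h under the same culture (the labels conflict on its dose). There is 1 library per treatment, made by droplet capture and sequencing of transcript 3′ ends, and 2 barcodes occur in both libraries, 1 of them in the quartiles described. Cells of 1 library are not replicates of a condition, so no test was made and no p-value is given. A level is the UMIs of a gene summed over a quartile, scaled to 1000000 UMIs of that quartile (CPM). The 95% intervals are exact and cover counting error only, and a log2 ratio is always the mitotic-rich level over the mitotic-poor level.

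As background, a cell entering mitosis makes Ccnb1 and other cyclins that activate the kinase Cdk1. The kinases Plk1 and Aurka then build the spindle, and Cdc20 and Ube2c, through the anaphase-promoting complex, later destroy the cyclins. Transcripts of these genes build up from G2 into mitosis, when B-Myb, the MuvB complex and FoxM1 act at promoters that often carry a CHR element (the letters TTTGAA, or less often TTCGAA) and CCAAT boxes bound by NF-Y. Genes for replication and the G1 to S step are instead served largely by E2F factors and are transcribed earlier in the cycle. Mouse embryonic stem cells divide fast and spend little time in G1.

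The promoters of 6 higher genes, picked because they carry both elements, and of 1 lower gene with neither are shown because the letters of these elements are counted over the gene sets further down. They are stretches within the 120 bases before the RefSeq transcript start that no annotated exon covers, on build GRCm38.p6, with the CHR letters and the CCAAT letters of either strand in capitals. The stretches lie at chr4:118437353-118437463 (Cdc20, minus strand), chr10:69352939-69353032 (Cdk1, minus), chr2:129297213-129297332 (Ckap2l, minus), chr3:159495313-159495432 (Depdc1a, plus), chr2:158767979-158768092 (Fam83d, plus), chr11:106999542-106999645 (Kpna2, minus) and chr16:93883781-93883900 (Chaf1b, plus). Cdc20 is a gene of the rule, the next 5 were higher in the mitotic-rich quartile, and Chaf1b, a histone chaperone subunit of replicating chromatin, was lower.
Cdc20: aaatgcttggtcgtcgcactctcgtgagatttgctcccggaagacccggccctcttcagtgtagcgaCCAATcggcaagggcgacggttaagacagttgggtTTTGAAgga
Cdk1: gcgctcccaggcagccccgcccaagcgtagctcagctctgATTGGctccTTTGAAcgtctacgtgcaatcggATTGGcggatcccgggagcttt
Ckap2l: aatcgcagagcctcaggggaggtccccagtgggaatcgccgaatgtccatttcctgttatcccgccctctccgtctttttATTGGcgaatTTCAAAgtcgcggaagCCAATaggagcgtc
Depdc1a: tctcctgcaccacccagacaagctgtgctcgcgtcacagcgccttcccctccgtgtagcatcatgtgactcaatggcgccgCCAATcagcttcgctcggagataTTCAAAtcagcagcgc
Fam83d: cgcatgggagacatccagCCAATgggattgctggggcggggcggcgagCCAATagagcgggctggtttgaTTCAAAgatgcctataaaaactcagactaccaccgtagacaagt
Kpna2: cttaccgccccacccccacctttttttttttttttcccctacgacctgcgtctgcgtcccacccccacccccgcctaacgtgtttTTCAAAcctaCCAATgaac
Chaf1b: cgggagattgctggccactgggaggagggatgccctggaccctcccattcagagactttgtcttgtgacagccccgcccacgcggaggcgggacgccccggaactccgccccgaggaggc
These lines show what the elements look like and do not stand for the whole set. Such stretches were extracted for 17 higher or rule genes. Within the stretch, 7 carried both sets of letters and 9 no CHR match, among them Arhgef39, Aurka, Ube2c and Cdc25b. The Arhgef39 stretch, at chr4:43508774-43508867, belongs to a RefSeq start upstream of the gene's GENCODE span of chr4:43496142-43499695. It therefore does not describe the start of that span. A stretch stops at the start or at an annotated exon, so letters beyond it are missed here. In the longer windows counted further down, 6 of the 8 rule genes had a CHR match within 50 bases of the start.

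The share used for the choice ran without a gap from 0.00708% to 0.654% of a cell's UMIs. The mitotic-poor quartile ended at 0.1105%, and the first cell outside it stood at 0.1106%. The mitotic-rich quartile began at 0.3111%, and the last cell below it stood at 0.3109%. The medians of the poor and the rich quartile were 0.0699% and 0.388%. The quartiles are therefore ends of a continuous range, with many cells close to either boundary, and not separate cell types. The mitotic-rich cells were also deeper, with a median of 50637 UMIs against 38149, and their summed depths were 10400257 and 8383751 UMIs. With every cell thinned to 23500 UMIs, the median number of genes seen was 5173 and 5158.

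**Figure D1:**
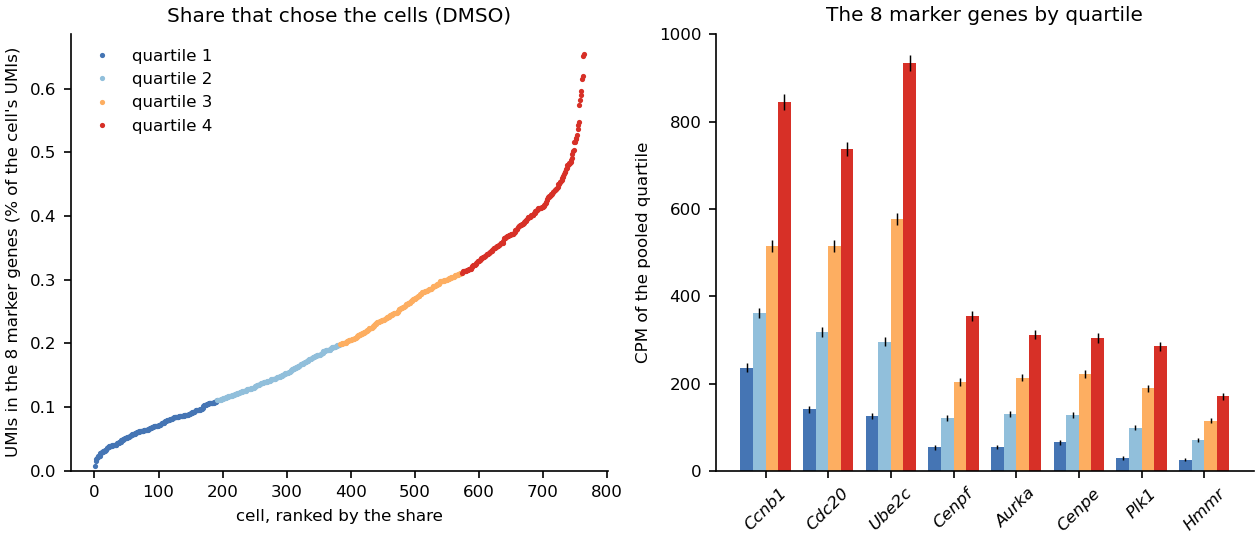
Left, the share of UMIs in the 8 marker genes (percent, y axis) for each of the 764 DMSO cells in rank order, coloured by quartile. Right, CPM of the 8 markers in each pooled quartile (bars), with exact 95% Poisson intervals for counting error; every marker rises over the 4 quartiles, with Plk1 at 29.1 CPM in the lowest and 285 CPM in the highest.

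The values of the 8 rule genes describe the choice and carry no test. Ube2c, the ubiquitin-conjugating enzyme of the anaphase-promoting complex, stood at 125, 296, 577 and 935 CPM from the lowest to the highest quartile. Plk1, a kinase of mitotic entry and spindle assembly, stood at 29.1, 98.6, 189 and 285 CPM, and its log2 ratio of 3.29 was the highest of the 8. Ccnb1, cyclin B1, had the lowest at 1.84, with 236 CPM in the mitotic-poor and 845 CPM in the mitotic-rich quartile. When each marker was left out of its own ranking, its log2 ratio ran from 1.65 for Ccnb1 to 3.17 for Plk1, so each marker separated cells that the other 7 had ranked. Between 174 and 188 of the 191 mitotic-rich cells were the same in those rankings. Over all 764 cells, the 28 pairs of markers had correlations of their shares between 0.402 and 0.698, with a median of 0.559. Within the mitotic-rich quartile the median was 0.158 and within the mitotic-poor quartile 0.0895. These coefficients share the library and the cells' depth, and selecting on the summed share itself narrows the range within a quartile.

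Defining markers of pluripotent stem cells were present in both quartiles, and those of the other types checked were at low levels or 0. The 7 pluripotency markers Pou5f1, Sox2, Nanog, Sall4, Esrrb, Zfp42 and Klf4 summed to 3935 CPM in the mitotic-rich and 4089 CPM in the mitotic-poor quartile. The 6 fibroblast markers summed to 0.192 and 1.07 CPM, with Col1a1, Col3a1, Lum and Postn at 0 UMIs. The 6 markers of primitive endoderm summed to 2.98 and 2.50 CPM with Sox7 at 0, and the 4 of trophectoderm to 10.7 and 10.3 CPM with Hand1 at 0. All 4 markers of cells resembling the 2-cell embryo were at 0. Wider lists summed to 470 CPM in mitotic-rich and 508 CPM in mitotic-poor cells for primitive endoderm (with Sparc and Lamc1). They summed to 348 and 269 CPM for trophectoderm, mesendoderm and neuroectoderm (with Krt8 and Tubb3). The sums were 272 and 266 CPM for 2-cell-embryo-like genes, and 68.8 and 70.02 CPM for fibroblast feeder genes. Of the 13 2-cell-embryo-like genes, 11 had 0 UMIs. At fixed depth Eif1a alone held a median of 6 UMIs per cell in both quartiles, as did that whole list. Fbln1 was the only fibroblast feeder gene with at least 200 UMIs over both quartiles. The part of these wider lists in the results was not tested. The median mitochondrial share was 2.53% in mitotic-rich and 2.64% in mitotic-poor cells. A share above 5% was found in 5 mitotic-poor and 0 mitotic-rich cells. Of the 5, 1 cell stood at 37.2% and the next at 7.84%.

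Outside the rule, few of the genes assessed differed by the size set below, and most had a similar share of the UMIs in both quartiles. Scaling to each quartile's total holds the typical log2 ratio near 0, so UMIs per cell can differ where this share does not. A gene was called higher or lower where its log2 ratio was at least 0.5 in size (1.41-fold), its Poisson intervals did not overlap, and it held at least 200 UMIs over both quartiles. Of the 7457 genes with that many UMIs, 267 were higher (3.58%) and 157 were lower (2.11%) in the mitotic-rich quartile. The median log2 ratio of all 7457 genes was -0.0040, and 5554 lay within 0.25 of 0. The higher side was also the steeper, since 95 higher and 11 lower genes differed by at least 1 on the log2 scale. Together the 267 genes took up 3.88% of the UMIs of the mitotic-rich and 2.06% of those of the mitotic-poor quartile, and the 157 took up 0.515% and 0.835%. The split between directions depended on the scaling: higher genes were 63.0% of all calls with plain totals, 72.9% with TMM factors and 73.1% with median-of-ratios factors. When only cells of 30000 to 60000 UMIs were ranked, which narrows the range of depth, 251 genes were higher and 115 lower. Of these genes, 185 and 57 were among the 267 and 157 called over all cells. The sides then held 118 and 119 cells under the same minimum of 200 UMIs per gene, which fewer genes can reach.

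**Figure D2:**
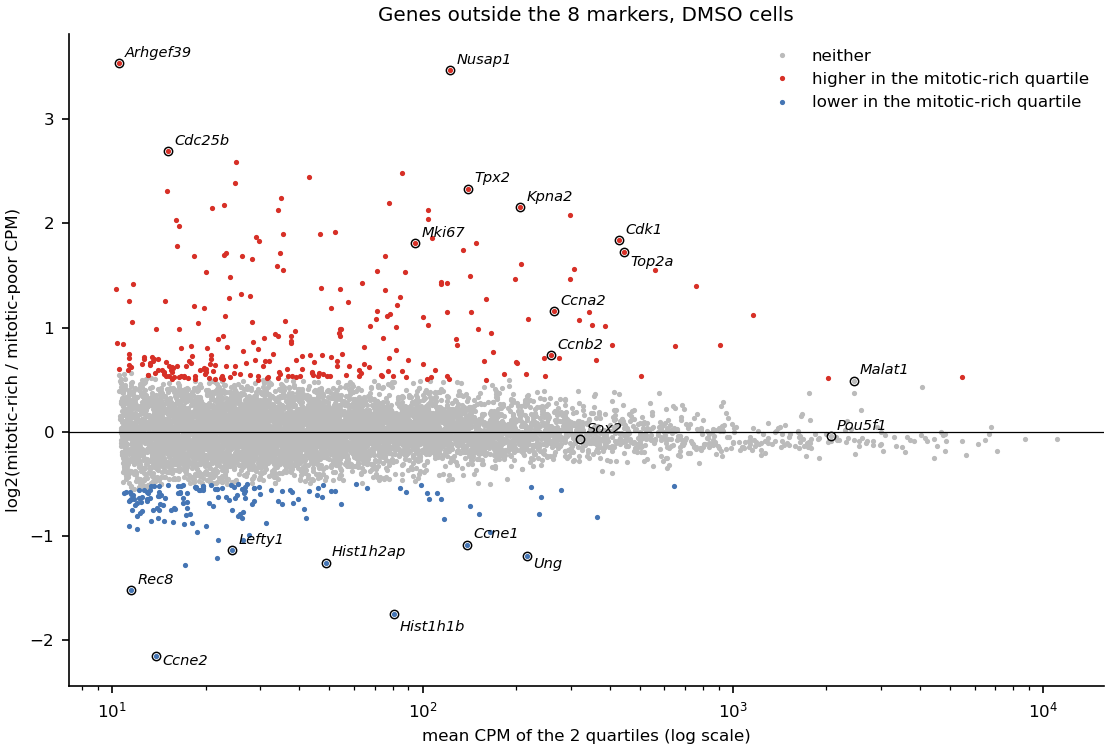
Log2 ratio of mitotic-rich over mitotic-poor CPM (y axis) against mean CPM (x axis, log scale) for the 7457 genes outside the rule with at least 200 UMIs, with the 267 higher genes in red and the 157 lower in blue. The red points reach 3.53 (Arhgef39) and the blue points -2.15 (Ccne2), and Pou5f1 and Sox2 lie near 0.

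Of the 19 genes higher by at least 2 on the log2 scale, 10 were in the list of kinesins, spindle and cytokinesis, which holds 49 of the 7457 genes. Of all 267 higher genes, 153 were in no list. Arhgef39 had the highest ratio, with 1.67, 6.08, 12.2 and 19.3 CPM over the quartiles and a log2 ratio of 3.53 (95% interval 2.75 to 4.43) that rests on 201 and 14 UMIs. Nusap1, which bundles spindle microtubules near chromosomes, stood at 20.3, 56.2, 132 and 225 CPM, a log2 ratio of 3.47 (3.24 to 3.70). At the fixed depth of 23500 UMIs the median cell held 5 Nusap1 UMIs in the mitotic-rich and 0 in the mitotic-poor quartile. The 10th to 90th percentile ran from 2 to 9 UMIs in mitotic-rich and from 0 to 2 in mitotic-poor cells, and at least 1 UMI was seen in 99.0% and 35.1% of cells. Prc1, which cross-links the microtubules of the central spindle, went from 26.1 to 146 CPM, a log2 ratio of 2.48 (2.27 to 2.69). Tpx2, which activates Aurora A on the spindle, went from 46.5 to 234 CPM and had a log2 ratio of 2.33 (2.18 to 2.49). Kif23, a motor of the midzone and the midbody, went from 38.8 to 170 CPM (log2 ratio 2.13). Ckap2l, Fam83d and Depdc1a, whose promoters are printed above, had log2 ratios of 2.45, 2.24 and 2.38. Of 49 kinesins and spindle or cytokinesis genes with enough UMIs, 39 were higher and 0 lower, with a median log2 ratio of 1.32.

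Of 22 mitotic kinases, cyclins and phosphatases outside the rule, 17 were higher, 0 lower and 5 not called, with a median log2 ratio of 1.13. Cdc25b and Cdc25c, the phosphatases that remove the inhibitory phosphates of Cdk1, went from 4.06 to 26.2 CPM and from 8.35 to 37.6 CPM, which are log2 ratios of 2.69 and 2.17. Cdk1 itself went from 187 to 670 CPM (log2 ratio 1.84, 1.76 to 1.92), with 15 UMIs in the median mitotic-rich and 4 in the median mitotic-poor cell. Aurkb, the kinase of the chromosomal passenger complex, went from 40.7 to 167 CPM (log2 ratio 2.04), and Ttk, the checkpoint kinase Mps1, from 15.03 to 55.9 CPM (1.89). The cyclins differed among themselves. Ccnb1 at 1.84 belonged to the rule, Ccna2, cyclin A2, had a log2 ratio of 1.15 (1.07 to 1.24), and Ccnb2, cyclin B2, one of 0.73 (0.65 to 0.82). Ccnb2 already stood at 195 CPM in the mitotic-poor quartile, against 325 CPM in the mitotic-rich. Summed per cell at fixed depth, the 22 genes gave a median of 78 UMIs in mitotic-rich cells (10th to 90th percentile 65 to 95) and 35 in mitotic-poor cells (18 to 50). Every mitotic-rich cell lay above the mitotic-poor median and no mitotic-poor cell above the mitotic-rich median.

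Chromosome and kinetochore genes formed a more mixed set. Of 38 kinetochore and spindle checkpoint genes, 21 were higher and 0 lower, with a median log2 ratio of 0.62. Cenpl, a centromere protein of the inner kinetochore, went from 12.5 to 45.8 CPM (log2 ratio 1.87), and Cenpa, the histone H3 variant of centromeres, from 159 to 439 CPM (1.46). Spc25, a subunit of the Ndc80 complex, went from 62.0 to 167 CPM (1.43). Of 38 genes of condensin, cohesin and chromosome structure, 13 were higher and 0 lower, with a median of 0.25. Among them, Top2a, the topoisomerase that untangles sister chromatids, went from 206 to 683 CPM (1.73), and Cdca2, which brings a phosphatase to chromosomes at mitotic exit, from 28.0 to 128 CPM (2.19). Mki67, which coats mitotic chromosomes and is widely used as a proliferation marker, went from 41.9 to 147 CPM (1.81). Ncapg, a condensin I subunit, had a log2 ratio of 1.13.

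Of 25 genes of the anaphase-promoting complex and mitotic exit outside the rule, 4 were higher (3.58% of all genes were) and 0 lower, with a median log2 ratio of 0.05. The sum of the list went from 3417 to 4157 CPM, and at fixed depth the median cell held 80 UMIs in the mitotic-poor and 96 in the mitotic-rich quartile, with 95.3% of mitotic-rich cells above the mitotic-poor median. The 4 were Fzr1, the coactivator Cdh1 that replaces Cdc20 (64.9 to 175 CPM, log2 ratio 1.43), Ube2s, which extends its ubiquitin chains (0.83), the subunit Cdc27 (0.74) and the inhibitor Fbxo5 (0.56). Among 16 MuvB, B-Myb, FoxM1 and E2F regulators, 2 were higher and 1 lower. Foxm1 went from 18.4 to 38.1 CPM (log2 ratio 1.05), Rbl1, the pocket protein p107, had 0.62, and the repressor E2f6 had -1.03. Of 18 tubulins and actins, 5 were higher and 0 lower. They included Tuba1c, which went from 114 to 481 CPM (2.08), and Tubb4b (1.12), while Tuba1b, at 2142 and 2779 CPM, had a log2 ratio of 0.38 and was not called. Of 20 centrosome and centriole genes, 4 were higher and 0 lower, among them Cntrl, centriolin, at 0.97. Kpna2, an importin that also regulates spindle assembly factors, went from 75.6 to 337 CPM (2.16). Its processed copy Gm10184 is 99.9% identical over 1968 bases and also stands in the gene table, so counts of the pair cannot be fully told apart. Of 15 heat shock chaperones, only the constitutive chaperone Hspa8 was higher, at 4495 and 6457 CPM (0.52), and 0 were lower. In so few genes this is near the share over all genes.

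**Figure D3:**
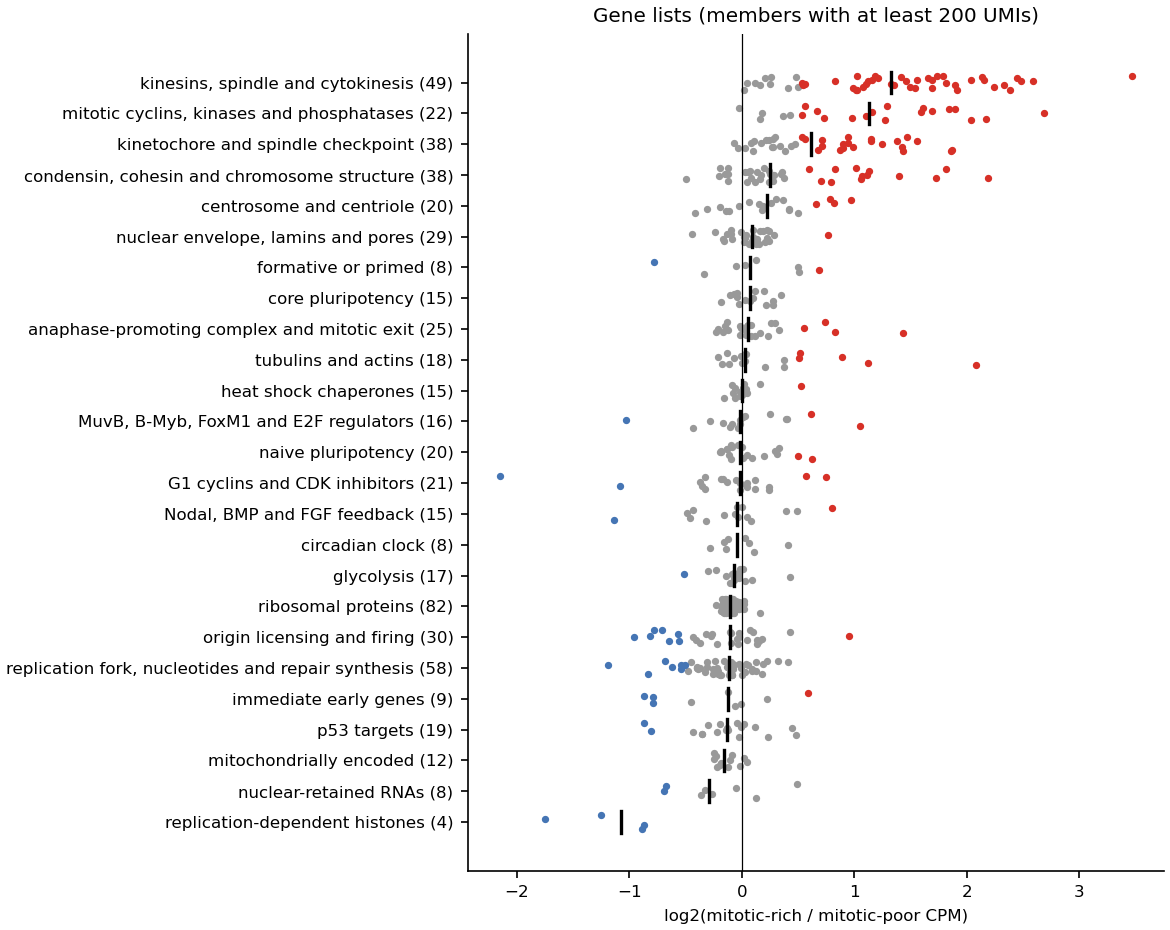
Each point is a gene with at least 200 UMIs, placed by its log2 ratio of mitotic-rich over mitotic-poor CPM (x axis) in its gene list (y axis, number of genes in brackets), red where higher, blue where lower and grey where neither; bars are list medians. The medians run from 1.32 for kinesins, spindle and cytokinesis to -1.07 for replication-dependent histones, and most lists lie close to 0.

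Of the 157 lower genes, 126 were in no list and 21 in those of G1 cyclins, origin licensing, the replication fork, histones or E2F regulators. Of the 11 lower by at least 1 on the log2 scale, 6 were in these. The 5 lists hold 21, 30, 58, 4 and 16 of the 7457 genes, in the order named. Ccne2, cyclin E2, had the lowest ratio of the 7457 genes, with 22.7, 18.6, 11.2 and 5.10 CPM over the quartiles and a log2 ratio of -2.15 (-2.62 to -1.71). Its relative Ccne1, cyclin E1, stood at 189, 154, 108 and 89.3 CPM, a log2 ratio of -1.08 (-1.20 to -0.96). Both partner Cdk2 at the start of replication. Of 21 G1 cyclins and inhibitors of cyclin-dependent kinases, these 2 were lower, and Cdkn2d (0.74) and Cdkn1b (0.57) were higher. The D cyclins were level, with Ccnd1 at 210 and 208 CPM and Ccnd3 at 210 and 203 CPM in the poor and the rich quartile. Ung, the glycosylase that removes uracil from DNA, fell from 302 to 133 CPM (-1.19, -1.28 to -1.09), and the median cell at fixed depth held 7 and 3 UMIs. Only 4.19% of mitotic-rich cells lay above the mitotic-poor median of Ung. Of 30 genes of origin licensing and firing, 7 were lower, including Gins2 of the replicative helicase (218 to 112 CPM, -0.96), Orc6 (-0.78), Mcm4 (-0.71) and the loader Cdc6 (-0.56). The single higher member was Dbf4, the activator of the Cdc7 kinase, which went from 113 to 219 CPM (0.95). Cdt1, another loader, stood at 184 and 193 CPM. Of 58 replication fork, nucleotide and repair synthesis genes, 7 were lower and 0 higher, with a median log2 ratio of -0.12. Chaf1b fell from 150 to 83.8 CPM (-0.84), Dut from 292 to 190 CPM (-0.62) and the single-strand binding subunit Rpa1 from 100.1 to 68.7 CPM (-0.54). Pcna, the sliding clamp, stood at 106 and 89.6 CPM and was not called.

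Replication-dependent histone transcripts mostly lack a poly(A) tail, so a method that captures poly(A) sees few of them. Of 68 such genes in the table, 4 had enough UMIs, and all 4 were lower, with a median log2 ratio of -1.07. Between the top and the bottom eighth of cells this median was -0.41, with Hist1h1e at -0.047 and Hist1h1a at -0.28, which ends their calls. With cells thinned to equal UMIs the median was -0.51, with Hist1h1e at -0.26 and Hist1h1a at -0.29. The linker histone Hist1h1b stood at 124, 146, 87.3 and 36.9 CPM over the quartiles (log2 ratio -1.75, -1.92 to -1.58), highest in the second quartile. Hist1h2ap followed the same course with 68.6, 89.6, 55.2 and 28.7 CPM (-1.25), and it shares its sequence with Hist1h2ao at 100% over 452 bases, so its counts are uncertain between copies. Slbp, which binds the stem-loop of these transcripts, fell from 464 to 264 CPM (-0.82).

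The course over the range of cells was finer than the ends show. Of the 267 higher genes, 251 were highest in the top quartile and 214 rose at every step. Of the 157 lower genes, 146 were highest in the bottom quartile and 91 fell at every step. In eighths of the cells, Nusap1 rose at each step from 13.9 to 264 CPM. Hist1h1b started at 69.2 CPM in the lowest eighth, reached 165 and 161 CPM in the next 2, and fell to 25.4 CPM in the highest. Ccne2, Ung, Gins2 and Slbp were likewise highest in the second eighth, with Ung at 286 CPM in the first, 316 in the second and 126 in the last. The summed replication fork genes stood at 8428 CPM in the first eighth, 9803 in the second and 8097 in the last, and the summed histone genes at 163, 370 and 111 CPM. The mitotic-poor quartile thus joined an eighth with lower and an eighth with higher sums of histone and replication transcripts. Single cells showed the same breadth: the replication fork sum at fixed depth ran from 134 to 271 UMIs (10th to 90th percentile) in mitotic-poor cells and from 166 to 217 in mitotic-rich cells. Of 7516 genes searched, 21 peaked in a middle quartile by at least 0.25 on the log2 scale over both ends, and 4 of them were also called lower between the ends. Among the 21 were Tk1, thymidine kinase (120, 148, 121 and 103 CPM), Hist1h1e and Lefty2, an inhibitor of Nodal (79.6, 102, 119 and 58.7 CPM).

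**Figure D4:**
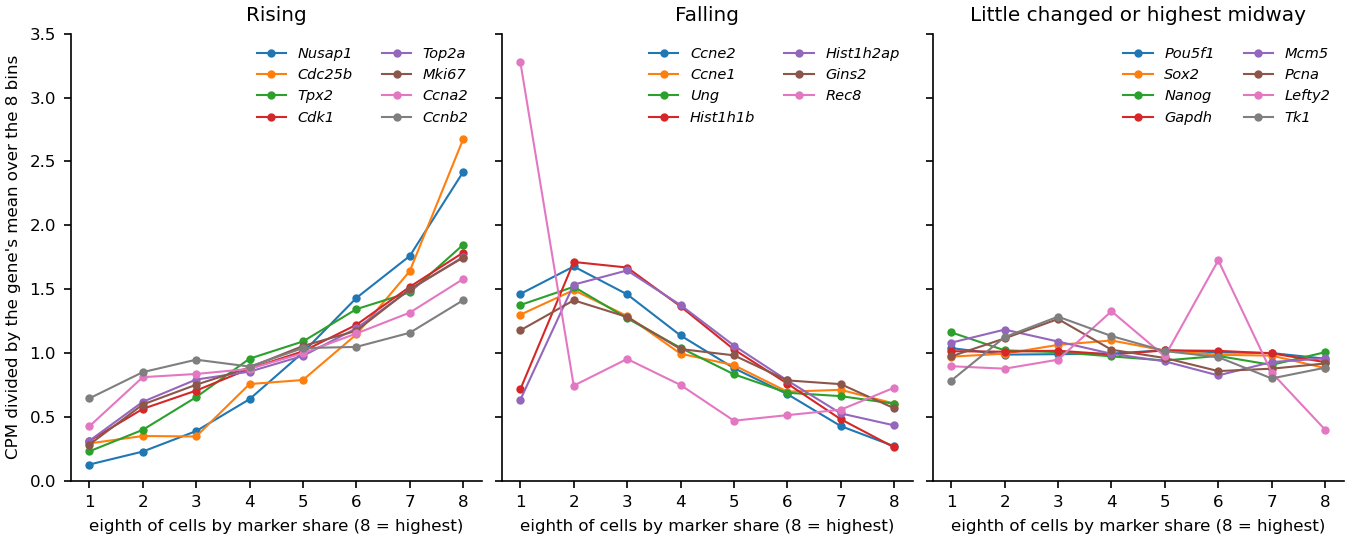
CPM of single genes in 8 equal bins of DMSO cells ordered by marker share (x axis, 8 highest), each divided by the gene's mean over the bins (y axis). Nusap1 and Cdc25b climb most steeply, Hist1h1b and Hist1h2ap peak in bins 2 and 3, Rec8 is high in the first bin alone, and Pou5f1 stays level.

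Other lower genes were highest in the first eighth and are not genes of replication. Rec8, a cohesin subunit known from meiosis, stood at 31.0 CPM in the first eighth and between 4.44 and 9.004 CPM in the other 7, and its log2 ratio between quartiles was -1.52 (-1.97 to -1.08). Icam1, a cell adhesion molecule, stood at 34.6 CPM in the first eighth and 16.3 in the second (-1.28 between quartiles). Serpinh1, a collagen chaperone, stood at 50.5 and 24.0 CPM (-1.04). The first eighth had the lowest median depth, at 32098.5 UMIs per cell, against 41047 in the second and 48035 in the eighth bin. When the scaling, depth, filters, width of the sides and score were varied, the log2 ratio between sides ran from -2.17 to -1.29 for Rec8. It ran from -1.74 to -1.09 for Icam1 and from -1.54 to -0.98 for Serpinh1. The part of depth in the values by eighth was not tested. The levels of these genes are low, and the median cell at fixed depth held 0 UMIs of each in both quartiles. Of 9 immediate early genes, Junb (-0.79), Jund (-0.79) and Btg2 (-0.87) were lower and Klf6 (0.59) was higher. Of 19 p53 targets, Btg2 and Perp (-0.81) were lower and 0 higher, and Cdkn1a, the p21 inhibitor, stood at 235 and 183 CPM without a call. Btg2 thus counts in both lists. Over all 7457 genes, 3.58% were higher and 2.11% lower, and counts this small say little beside these shares. For Perp, 12.5% of the UMIs in the mitotic-poor quartile came from 1 cell, and its sign turned (0.081) in cells of 30000 to 60000 UMIs. Lefty1 (-1.14) had 12.9% in 1 cell and shares sequence with Lefty2. In Idoxuridine cells the same split gave Lefty1 a log2 ratio of 2.20 (1.43 to 3.06), on 101 and 16 UMIs, too few for a call. Over all 157 lower genes the median share held by 1 cell was 3.08%, and over the 267 higher genes 1.90%.

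None of 15 core pluripotency genes was called, which in so few genes is near the share over all genes (3.58% higher and 2.11% lower), and their median log2 ratio was 0.07. Pou5f1, which encodes Oct4, stood at 2092, 2066, 2100.3 and 2032 CPM over the quartiles, and the median cell held 47 UMIs at fixed depth in both quartiles. Sox2 stood at 331 and 315 CPM and Nanog at 322 and 283 CPM (-0.19). Of 20 naive pluripotency genes, Pecam1 (0.63) and Tcl1 (0.50) were higher and 0 were lower, with Zfp42 at 908 and 914 CPM and Klf4 at 322 and 281 CPM (-0.20). None of 82 ribosomal protein genes and none of 12 mitochondrially encoded genes was called, and their medians were -0.10 and -0.16. Over the alternative settings these medians ran from -0.18 to 0.012 and from -0.24 to 0.029. Of 8 genes of the circadian clock, none was called. Of 17 glycolysis genes, the glucose transporter Slc2a3 was lower (-0.52). Malat1, a nuclear RNA, stood at 2037 and 2861 CPM, a log2 ratio of 0.49 that misses the size rule. Of 8 nuclear-retained RNAs, Snhg11 (-0.69) and Neat1 (-0.67) were lower and 0 higher, with a median of -0.29. The sum of the list of 9, most of it Malat1, had the other sign, with 3319 CPM in the mitotic-poor and 3944 CPM in the mitotic-rich quartile, and the median share per cell was 0.324% and 0.393%. Of 29 genes of the nuclear envelope, lamins and pores, the pore subunit Nup37 was higher (0.77) and 0 were lower. In lists of this size, the counts for the clock, glycolysis and nuclear envelope genes are near the share over all genes.

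Genes of other lineages and signals were few. Of 15 genes of Nodal, BMP and FGF feedback, Id1, a target of BMP signalling, was higher (0.80) and Lefty1 lower. Of 8 formative or primed genes, Etv4 (0.69) was higher and Sox4 (-0.78) lower. Of 3 trophectoderm, mesendoderm and neuroectoderm genes with enough UMIs, Tubb3, a tubulin used as a marker of neurons, was higher (0.89), and of 3 primitive endoderm genes Serpinh1 was lower. The lists of fibroblast feeder and 2-cell-embryo-like genes had 1 gene each with enough UMIs, and neither was called. Lists this small cannot be set against the share over all genes (3.58% higher and 2.11% lower).

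The Fano factor, the variance divided by the mean of a gene's UMIs at fixed depth, equals 1 for pure counting noise. It exceeded 1.5 for 595 of 7249 genes. For the 56 of these that were among the 267 called higher, the median share of the variance above counting that lay between quartiles was 50.4%, and their median Fano factor was 2.02 over all cells, 1.46 within the mitotic-rich and 1.55 within the mitotic-poor quartile. For all 595 genes, these 56 included, the median share was 2.51%. For Nusap1 the share was 79.5% and for Cdk1 66.7%, and for Pou5f1, with a Fano factor of 2.10, it was 0.580%. The share for the called genes is built in, since the quartiles that called them also divide the variance and add to the spread that took them past 1.5.

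The same ranking was then applied to the Idoxuridine library, whose cells took no part in choosing the genes. It gave quartiles of 162 cells from 648 with at least 23500 UMIs. Of 7072 genes there, 306 were higher (4.33%) and 195 lower (2.76%). Of the 267 genes higher in DMSO cells, 240 had enough UMIs, 233 of these lay above 0 (97.1%), and 163 were called higher, which is 61.0% of the DMSO list and 53.3% of the Idoxuridine list. The median log2 ratio of the DMSO list was 0.80 in DMSO cells and 0.79 in Idoxuridine cells. Nusap1 went from 26.4 to 262 CPM there (log2 ratio 3.31), Cdc25b had 2.36 and Cdk1 1.73. Of the 157 lower genes, 127 had enough UMIs, 111 of these lay below 0 (87.4%), and 48 were called lower, 30.6% of the DMSO list and 24.6% of the Idoxuridine list. Its median was -0.63 in DMSO and -0.41 in Idoxuridine cells. Ccne2 (-1.39), Hist1h1b (-1.54), Ung (-0.89), Gins2 (-0.98) and Slbp (-0.66) were lower in both libraries. Serpinh1 (0.15), Sox4 (0.05) and Tubb3 (0.03) were near 0 in Idoxuridine cells. Across the 6829 genes measured in both, the log2 ratios had a Pearson correlation of 0.726 and a Spearman correlation of 0.543. These are across genes, which are not independent, and both libraries were split on the same 8 markers.

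**Figure D5:**
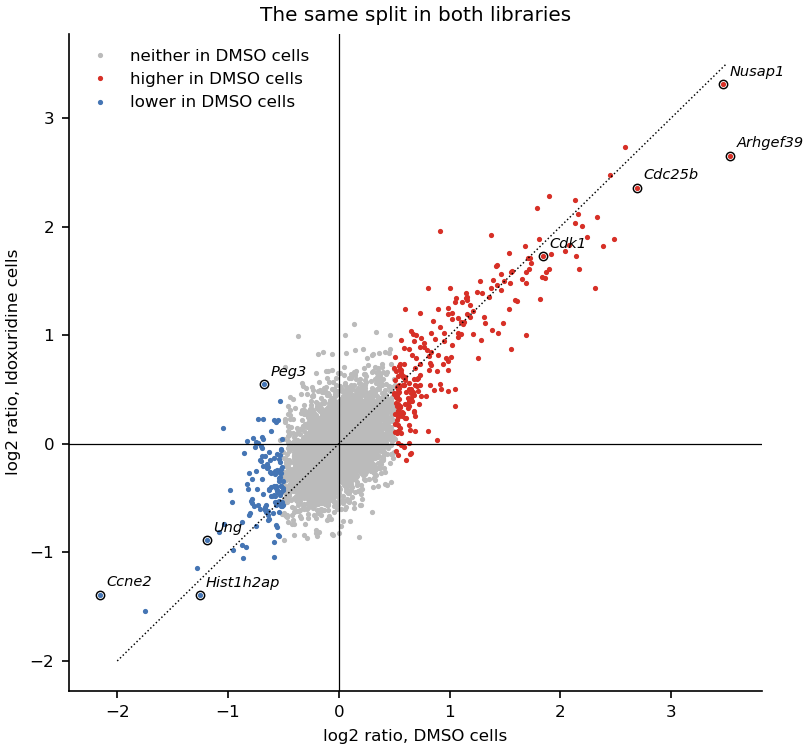
Log2 ratio of mitotic-rich over mitotic-poor CPM in DMSO cells (x axis) and in Idoxuridine cells (y axis) for the 6829 genes with at least 200 UMIs in both, coloured by the call in DMSO cells, with the dotted line marking equal ratios. Of the 240 higher genes shown, 233 lie above 0 in Idoxuridine cells. Nusap1 lies near the dotted line at 3.47 and 3.31, and Tubb3 well below it at 0.89 and 0.03. Blue points have a median of -0.41 in Idoxuridine cells, and Peg3 lies on opposite sides.

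The CHR and CCAAT letters were counted over promoters of the same length. A window of 250 bases before to 50 after each RefSeq start was searched on both strands for TTTGAA or TTCGAA (CHR) and for CCAAT, counting each window once (a gene can have more than 1), and 204 of the 267 higher and 125 of the 157 lower genes had such a window under their symbol. A CHR match stood in 67.1% of the promoters of genes higher by at least 1 on the log2 scale (51 of 76), in 40.2% of those of all higher genes and in 11.6% of those of lower genes. It stood in 14.1% of the promoters of all genes with at least 200 UMIs and in 19.2% of all 32851 promoters. CCAAT stood in 75% of promoters at the 1 log2 level, in 58.2% for all higher genes, in 40.4% for lower genes, in 38.4% for the genes with at least 200 UMIs and in 37.4% of all promoters. Both together stood in 61.8%, 31.9%, 4.79%, 5.94% and 7.52% of these 5 sets. A CHR match within 50 bases of the start, as in the Cdc20, Ckap2l, Depdc1a, Fam83d and Kpna2 lines printed above, stood in 53.9%, 25.9%, 2.05%, 3.75% and 5.31%. Of the 8 rule genes, 6 had a CHR match and all 8 a CCAAT match. The E2F forms TTTGGCGC, TTTCCCGC and GCGGGAA together stood in 7.89% of the promoters at the 1 log2 level, 10.4% for all higher genes, 14.4% for lower genes, 10.2% for the genes with at least 200 UMIs and 5.06% of all promoters. A match describes letters in a window, not a bound site.

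Some values need care at the level of the gene. Whether the counting used strand is not given in the sources used here. Hyls1, a centriole protein gene at chr9:35560820-35570398, was higher (2.31), and Pus3, a tRNA pseudouridine synthase gene at chr9:35558595-35567401 on the other strand, was lower (-0.99). They overlap in part, as do Nusap1 and Oip5, and Ccne2 and Ints8, and reads in the shared part of such pairs can be told apart only with strand. Slfn9 (-1.21) shares a stretch of 725 bases with Slfn8 at 96.7% identity. Less RNA per cell and fewer cells with a transcript cannot be told apart from a summed level, for which the per-cell medians above are given.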

How the data were processed

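Droplet 3′ RNA-seq of E14 cells gave 1 library per treatment. The authors deposited counts, whole-number UMI counts for 27998 genes per cell, not normalized, and, per the submitters' processing notes, Cell Ranger 2, Seurat and mm10 were used. Of the annotation release, the rule for calling cells and any removal of doublets nothing is stated in the sources used here. Every barcode in the files was kept as a cell (40818344 UMIs in the DMSO and 30454626 in the Idoxuridine library) and no doublet caller was run.

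Cells under 23500 UMIs (47 DMSO, 94 Idoxuridine) were left out, and the rest were ranked by their marker share. UMIs were summed per quartile and scaled to CPM, with exact Poisson 95% intervals and an exact conditional binomial interval for each ratio. Intervals cover counting error only. Per-cell values come from 1 seeded draw of 23500 UMIs per cell, and Fano factors from its exact expectation. The comparison was tried on simulated data with counting error only, which cannot show how the calls behave under the spread between cells. Cells of 1 library are not replicates, so no test of a difference was run, and the p-values of count models are not used.

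Named genes are the 8 rule genes, the 15 highest and 15 lowest ratios, up to 6 members of each list with the largest ratios, and a set of standard cycle and stem cell genes. Other genes named for a count or a peak were picked after their values were seen. The members, the 29 other lists and the call rule were chosen with earlier results of these data known. Of the list entries, 4 were not found in the gene table. Gene positions are from GENCODE M21 (GRCm38), where 27645 identifiers were found. Alternatives changed the scaling (edgeR 4.0.16 TMM and DESeq2 1.42.0 size factors), the weight of cells, the depth, the filters, the width of the sides and the score. Python 3.11.15, numpy 2.4.6, scipy 1.17.1, pandas 2.3.3 and R 4.3.3 were used.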

Additional observations from a re-analysis of the deposited data

Results flagged for a closer look

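Peg3, a paternally expressed imprinted gene, was the 1 gene called in opposite directions by the same split in the 2 libraries. In DMSO cells it stood at 21.4 CPM in the mitotic-poor and 13.4 CPM in the mitotic-rich quartile, a log2 ratio of -0.68. In Idoxuridine cells it stood at 31.5 and 46.0 CPM, a log2 ratio of 0.55. It drew attention because its sign differed between treatments, and with 1 library each the difference was not tested.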

How the results depend on the processing

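No paired analysis was possible because each treatment has 1 library and the quartiles come from the same one. Against 267 higher and 157 lower genes, a minimum of 50 UMIs gave 322 higher and 295 lower, a minimum of 1000 UMIs gave 105 and 22, and a size rule of 1 log2 gave 95 and 11. These follow from the filter admitting or removing genes. The other 12 alternatives gave 210 to 316 higher and 115 to 175 lower genes, each within 1.5 times. Gene identity moved more than the counts: in sides of an eighth, 164 of the 267 and 59 of the 157 were called, and after thinning before the ranking, 160 and 62. Both settings sum fewer UMIs per side but kept the minimum of 200 UMIs per gene, so genes can also drop out through this filter. How much of the change comes from it was not tested. The 100 named genes called include the rule genes, which made the ranking, and genes named for the highest or lowest ratios. A low number of sign changes is therefore partly built in. Of the 100, Perp changed sign, to 0.081 in cells of 30000 to 60000 UMIs. No other did under the alternatives that change ratios. The 4 list medians of at least 0.5 in size kept their sign under all of these, with the histone median moving from -1.07 to -0.41 with sides of an eighth and to -0.51 after thinning, while 13 of 27 medians, at most 0.22 in size, changed sign under at least 1. Depth limits genes under 200 UMIs over both quartiles, which were not called.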
